A study of Mus musculus with 8 samples.

Results

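The genes of the Mos-MAPK cascade and of cytostatic factor were followed in the transcriptome and translatome of young and old mouse oocytes arrested at metaphase II (MII). Members were taken by name: Mos, Map2k1, Mapk3, Rps6ka1, Rps6ka2, Rps6ka3, Fbxo43 and Plk1. Of these 8 genes, 7 had a row among the 10530 genes of the input table and among the 8898 genes of the HA table, and Rps6ka2 had a row in neither. All oocytes came from C57BL/6 females of genotype RiboTagF/F;Zp3-Cre, in which Cre under the oocyte-specific Zp3 promoter switches on an HA-tagged ribosomal protein (RPL22), so that both ages carried the tag and the Cre. Young females were 1 month old and old females, which were retired breeders, were 12 to 15 months old. Both ages received PMSG (5 IU) and, 48 h later, hCG (10 IU), and ovulated oocytes were collected 13 h after hCG. Each age had 2 pools of 200 oocytes, and each pool gave an input library of total mRNA (10% of the lysate) and an HA library of the mRNA that came down with tagged ribosomes. The study describes the pools as biologically independent samples of a single experiment. A pool mixes many oocytes, so that fewer cells with an mRNA and less of it per cell cannot be told apart.

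MOS is a kinase made in the maturing oocyte from stored mRNA. It activates the MAPK kinase MEK1 (Map2k1), which activates MAP kinase (ERK1, encoded by Mapk3), and this activates the p90 ribosomal S6 kinases RSK1, RSK2 and RSK3 (Rps6ka1, Rps6ka3 and Rps6ka2). Cytostatic factor is the activity that holds the egg at metaphase II until fertilisation. Its core is EMI2 (Fbxo43), which inhibits the anaphase-promoting complex (APC/C) and is stabilised through the MOS cascade. The polo-like kinase PLK1 (Plk1) acts in spindle assembly and marks EMI2 for destruction once the egg is activated.

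The question was whether total mRNA, ribosome-bound mRNA or their ratio differed with age for these genes. Values are CPM (the reads on a gene over the size of its library, after TMM scaling by the authors). Reads on listed genes numbered 38276453 to 60052814 per input library and 37817382 to 59688578 per HA library. A floor of 3 reads was 0.0435 to 0.0788 CPM in the input libraries and 0.0388 to 0.111 CPM in the HA libraries, which covers counting error only, because the reads carry no molecular identifiers. Old HA libraries had more genes of the table without a read (2.89% and 4.11%) than young HA libraries (0.112% and 0.865%). Of 12 oocyte markers 11 were in both tables, with a summed level of 8948 to 10100 CPM in input and 10326 to 17049 CPM in HA, and only Figla was in neither. None of the 4 blood markers was in a table. Of 12 cumulus and granulosa cell markers, 9 were in the input table, with summed levels of 35.5 to 119 CPM in old and 83.2 to 196 CPM in young libraries, and the defining genes Amh and Foxl2 were in neither table.

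Maternal mRNAs can be controlled from their 3′-UTR. There a cytoplasmic polyadenylation element (CPE, searched as TTTTAT or TTTTAAT on the mRNA strand) is bound by CPEB1 and acts together with the poly(A) signal (AATAAA or ATTAAA). Control of the members by CPEB1 was not tested. Of the 7 measured members, 3 held a CPE in the annotated 3′-UTR, namely Fbxo43 (6 in 1584 bases), Map2k1 (2 in 915 bases) and Rps6ka3 (7 in 4759 bases), against 67.7% of 9598 genes of the input table with a 3′-UTR, whose median length was 1281.5 bases. Mos, Mapk3, Rps6ka1 and Plk1 held neither of these forms in 3′-UTRs of 126, 612, 762 and 283 bases. Other forms of the element were not searched, so that these genes are not shown to lack one. None of the 7 had a CPE wholly inside the last 100 bases, a window in which 20.7% of genes had one and 81.7% had a poly(A) signal. The elements nearest to the 3′ end in the members whose values stood apart by age, and the poly(A) signal of Mos, are shown 5′ to 3′ with the element in capitals. Sequences and coordinates are those of GENCODE release M21 on build GRCm38.
Fbxo43 last CPE, chr15:36150147-36150172 on the minus strand, 97 bases before the 3′ end: atatatgtgtTTTTATactatacaca
Fbxo43 last poly(A) signal, chr15:36150070-36150095 on the minus strand, 20 bases before the end: aaaactaataATTAAAtttaaaattt
Rps6ka3 last CPE, chrX:159367108-159367133 on the plus strand, 1121 bases before the end: caagtaccacTTTTATtccagtcttt
Rps6ka3 last poly(A) signal, chrX:159368214-159368239 on the plus strand, 15 bases before the end: aaatttatatAATAAAgtttcaagta
Mos poly(A) signal, chr4:3870663-3870688 on the minus strand, 16 bases before the end: atttttaggaAATAAAgttaccacga
In Fbxo43 both elements lay close to the 3′ end, whereas the last CPE of Rps6ka3 lay far upstream of its last poly(A) signal. These matches are letters in an annotated 3′-UTR, and whether the oocyte uses these 3′ ends was not tested.

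Among the members, Fbxo43 and Rps6ka3 were the 2 genes whose ribosome-bound mRNA did not overlap between young and old oocytes, in opposite directions. As 1 of 7 members in each direction, they stood beside 17.2% of genes in the HA table with both old libraries above the young ones and 24.7% with both below, so that their number was not above that over all genes. Fbxo43 mRNA was 2.47-fold higher in old input and 4.17-fold higher in old HA, and Rps6ka3 mRNA was 11.6-fold lower in old HA with total mRNA that overlapped between the ages. The kinases at the head of the cascade, Mos, Map2k1 and Mapk3, overlapped between the ages in HA, as did Rps6ka1 and Plk1. No member passed an adjusted p of 0.05 in limma with Benjamini-Hochberg adjustment over all genes, in input (0 of 7, against 0.0095% of genes), in HA (0 of 7, against 0% of genes) or in the ratio of both (0 of 7, against 0% of genes). At an unadjusted p under 0.05, the calls were Fbxo43 in input, where 6.18% of genes were called, Fbxo43 and Rps6ka3 in HA, where 14.7% were, and Rps6ka3 in the ratio, where 6.49% were. An exact two-sided permutation test on 2 pools per age reaches no p smaller than 0.333, and p-values were therefore taken from fits across all genes.

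**Figure D1:**
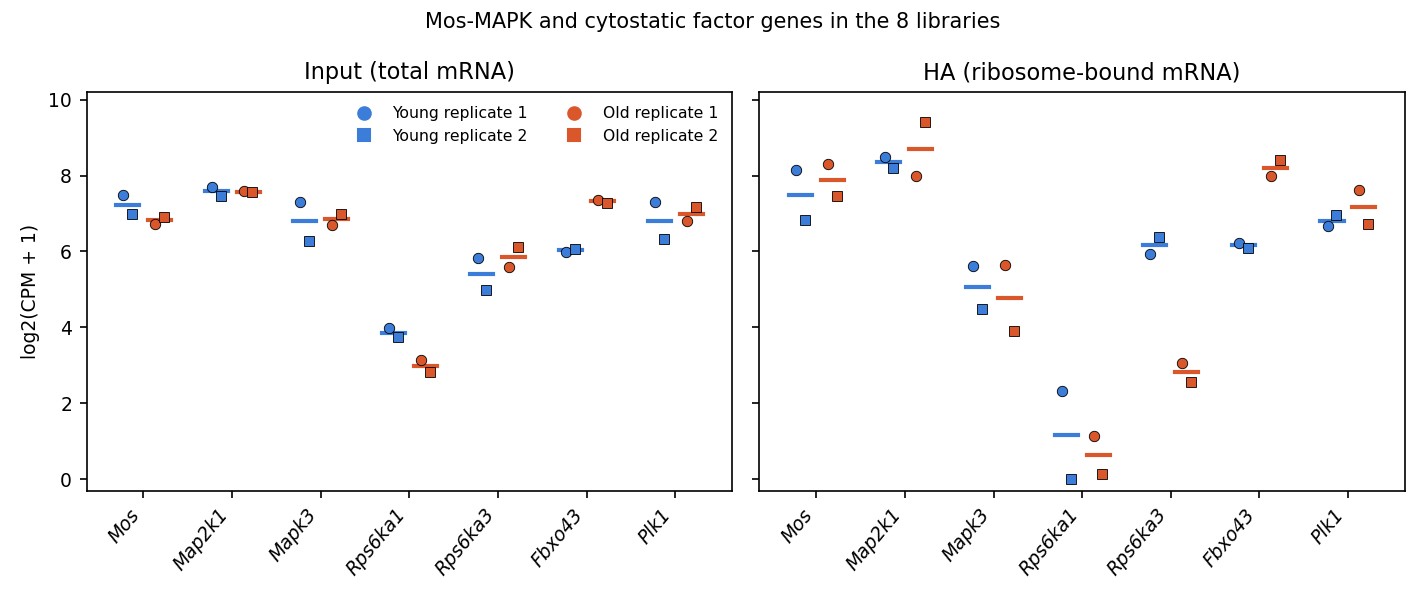
Level of each measured member as log2(CPM + 1) in the input libraries (left) and the HA libraries (right). Points are single libraries, circles and squares are replicates 1 and 2, blue is young, orange is old and bars are group means of the plotted values (n = 2 pools). Old and young points separate for Fbxo43 in both panels and for Rps6ka3 in the HA panel, more narrowly for Mos and Rps6ka1 in the input panel, and Rps6ka1 lies lowest in both.

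Mos (ENSMUSG00000078365) is a single-exon gene of 1449 bases at chr4:3870657-3872105 on the minus strand, with no other gene overlapping it. Total Mos mRNA was 105 and 119 CPM in the old pools and 179 and 125 CPM in the young pools. Both old pools were below both young pools, as were those of 18.9% of the genes in the input table. Young replicate 2 was close to old replicate 2, and the log2 difference of old minus young was -0.42 (SE 0.35, 95% interval -1.21 to 0.37, limma adjusted p = 0.895). Ribosome-bound Mos mRNA was 313 and 176 CPM in old and 284 and 112 CPM in young HA libraries. In each age replicate 1 was well above replicate 2, and the ages overlapped. The log2 difference in HA was 0.40 (SE 0.63, 95% interval -1.11 to 1.90, limma adjusted p = 0.876), and it was -0.24 with libraries rescaled to the same sum, -0.17 after quantile and -0.10 after cyclic loess normalization, so that its direction depended on the scaling. The deposited scaling left the median of all genes at -0.14 in HA, whereas the same-sum scaling left it at -0.68.

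The translation efficiency (TE) of a pool was taken as HA CPM over input CPM. Since the tables were normalized separately, a TE above 1 does not by itself mean that most copies were on ribosomes, and the percentile among the genes in both tables of the same pool is given with it. Mos TE was 2.98 and 1.48 in old and 1.58 and 0.896 in young pools, at percentiles 87.9, 70.4, 84.0 and 59.5. It was highest in old replicate 1, and the ages overlapped. The log2 TE of old minus young was 0.81 (SE 0.70, 95% interval -0.79 to 2.42, limma adjusted p = 0.832), and it was above 0 under each of the 15 alternatives run.

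Map2k1 (ENSMUSG00000004936), which encodes MEK1, lies at chr9:64185770-64253631 on the minus strand. Uchl4, Gm48855 and Gm24106 lie inside it on the other strand, and since the study counted without regard to strand and over the whole gene, introns included, reads from such genes could not be assigned to Map2k1 or to them with certainty. Its input level was 191 and 189 CPM in old and 207 and 177 CPM in young pools. These were the closest levels of any member, with a mean of 190 ± 1.43 CPM in old and 192 ± 21.6 CPM in young oocytes (SD, n = 2) and a log2 difference of -0.01 (SE 0.29, 95% interval -0.68 to 0.65, limma adjusted p = 0.996). Ribosome-bound Map2k1 mRNA was 254 and 674 CPM in old and 359 and 293 CPM in young HA libraries, so that the old pools lay on either side of the young ones. The log2 difference was 0.35 (SE 0.56, 95% interval -0.99 to 1.69, limma adjusted p = 0.877), and -0.34 under quantile normalization. Its TE was 1.33 and 3.57 in old and 1.73 and 1.66 in young pools. Here the young pools were alike and the old pools were not, and the log2 TE difference of 0.36 (SE 0.64, limma adjusted p = 0.923) became -0.20 under quantile normalization.

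Mapk3 (ENSMUSG00000063065), which encodes ERK1, lies at chr7:126759601-126765819 on the plus strand. Total Mapk3 mRNA was 103 and 126 CPM in old and 157 and 76.4 CPM in young pools. The young pools enclosed the old ones, and the log2 difference was 0.05 (SE 0.42, 95% interval -0.92 to 1.03, limma adjusted p = 0.991). Ribosome-bound Mapk3 mRNA was only 49.0 and 14.0 CPM in old and 48.3 and 21.5 CPM in young HA libraries, and replicate 1 was the higher in both ages. The difference in HA was -0.28 on the log2 scale (SE 1.12, limma adjusted p = 0.965). Its TE was 0.477 and 0.111 in old and 0.307 and 0.282 in young pools, which put Mapk3 at percentiles 40.8 and 28.6 in old and 13.9 and 20.0 in young. Mapk3 thus lay below the median TE of genes in every pool, and Mos and Map2k1 lay above it in every pool.

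The RSK genes were the members with the least total mRNA per length. Rps6ka1 (ENSMUSG00000003644, RSK1), at chr4:133847290-133887797 on the minus strand, is overlapped by Gm12977 on the other strand and by Gm12985 and Gm22523 on the same strand, none of which had a row in the tables. It had 7.75 and 6.06 CPM in old and 14.7 and 12.3 CPM in young input libraries. Both old pools were lower, and the log2 difference was -0.88 (SE 0.92, 95% interval -2.99 to 1.22, limma adjusted p = 0.923). In HA, Rps6ka1 had 1.19 and 0.111 CPM in old libraries, which is 50 and 3 reads, and 4.01 and 0 CPM in young libraries, which is 310 and 0 reads. One library of each age was at or under the floor of 3 reads while the other was above it, so that the replicates of each age disagreed and the ages overlapped. Its TE was at most 0.272 in any pool. On the log2 scale with a pseudocount of 1 CPM the TE difference was 0.36 although the mean ratio was the lower in old pools, and an interaction test in edgeR gave -0.64.

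Rps6ka2 (RSK3), annotated at chr17:7170115-7303315 on the plus strand, was in neither table, which had been filtered on low values by the authors, so that no level can be given. Rps6ka3 (ENSMUSG00000031309), which encodes RSK2, lies at chrX:159210307-159368244 on the plus strand. Its total mRNA was 46.9 and 69.0 CPM in old and 55.9 and 30.9 CPM in young pools. The ages overlapped, with a log2 difference of 0.44 (SE 0.52, 95% interval -0.75 to 1.63, limma adjusted p = 0.932).

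Ribosome-bound Rps6ka3 mRNA was 7.41 and 4.92 CPM in old HA libraries, from 312 and 133 reads, and 60.6 and 82.2 CPM in young HA libraries, from 4688 and 4664 reads. Both old libraries were far below both young ones and well above the floor. The mean was 6.16 ± 1.77 CPM in old and 71.4 ± 15.3 CPM in young oocytes (SD, n = 2). The log2 difference was -3.34 (SE 1.13, 95% interval -6.03 to -0.66, unadjusted p = 0.0219, adjusted p = 0.297 in limma), and 2.20% of all genes in the HA table had a difference as low or lower, while 24.7% had both old libraries below both young ones. DESeq2 on the recovered reads called it, as 1 of 7 members against 5.71% of genes (log2 difference -3.35, adjusted p = 0.0187), edgeR's likelihood ratio test did not (adjusted p = 0.108), and over all 16 alternatives the difference ran from -3.92 to -2.77 and the adjusted p from 0.0187 to 1.00. With each pool left out in turn the difference ran from -3.60 to -3.09. Such a fit keeps 1 pool in an age, so that the spread between pools comes from the other age alone. The 3 cumulus and granulosa cell markers in the HA table summed to 81.7 to 83.8 CPM in old and 156 to 182 CPM in young HA libraries. Most of this sum was Cyp19a1 (80.4 and 69.7 CPM in old, 142 and 174 CPM in young). Ptgs2 was also lower in old (0.119 and 0.111 against 3.68 and 4.72 CPM), and Fshr overlapped (3.30 and 11.9 against 9.67 and 3.37 CPM). Their part in the Rps6ka3 result, like that of the genes without reads in old HA, was not tested.

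In TE, Rps6ka3 was 0.158 and 0.0712 in old pools and 1.08 and 2.66 in young pools. Young and old pools did not overlap, which was so in this direction for 20.4% of genes in both tables. Its percentile was 23.4 and 24.6 in old and 69.5 and 91.7 in young pools, so that its rank among genes was low in both old pools and above the middle in both young pools. The log2 TE difference was -3.79 (SE 1.20, 95% interval -6.51 to -1.06, unadjusted p = 0.0121, adjusted p = 0.739 in limma), and 2.07% of genes had one as low or lower. Leaving out young replicate 1 or young replicate 2 kept the direction (-4.42 and -3.15) and raised the unadjusted p above 0.05.

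**Figure D2:**
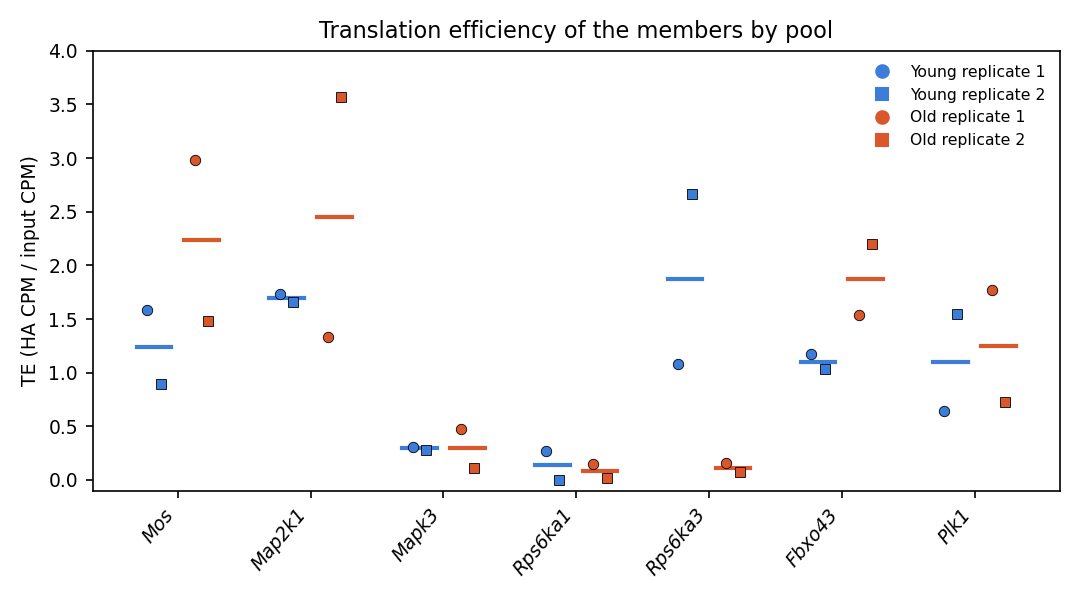
Translation efficiency (HA CPM over input CPM, linear axis) of each measured member in the 4 pools, with circles and squares for replicates 1 and 2, blue for young, orange for old and bars for group means (n = 2). Rps6ka3 pools are at 0.158 and 0.0712 in old and 1.08 and 2.66 in young oocytes, and Fbxo43 is the other gene whose ages do not overlap.

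Fbxo43 (ENSMUSG00000048230), the gene of the APC/C inhibitor EMI2, has 5 exons at chr15:36150060-36164884 on the minus strand, with no overlapping gene. Total Fbxo43 mRNA was 163 and 154 CPM in old and 62.8 and 65.7 CPM in young pools. Replicates were close in both ages, with 159 ± 6.60 CPM in old and 64.2 ± 2.09 CPM in young oocytes (SD, n = 2), and both old pools were above both young ones, as for 16.4% of genes. The log2 difference was 1.29 (SE 0.35, 95% interval 0.50 to 2.08, unadjusted p = 0.00531, adjusted p = 0.778 in limma), and 5.67% of genes in the input table had a difference as high or higher. It lay between 1.10 and 1.33 in all 16 alternatives, and the adjusted p ranged from 0.0539 (DESeq2) to 1.00.

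Ribosome-bound Fbxo43 mRNA was 251 and 339 CPM in old and 73.8 and 67.8 CPM in young HA libraries. Both old libraries were again the higher, which held for 17.2% of genes in HA, with means of 295 ± 62.3 and 70.8 ± 4.26 CPM (SD, n = 2). The log2 difference was 2.03 (SE 0.53, 95% interval 0.77 to 3.29, unadjusted p = 0.00675, adjusted p = 0.297 in limma), and 3.78% of genes in the HA table were as high or higher. Over 16 alternatives it ran from 1.40 to 2.29. In those that kept all pools the adjusted p ran from 0.0876 to 0.800. Fbxo43 TE was 1.54 and 2.20 in old and 1.18 and 1.03 in young pools. Both old pools were higher, as in 17.2% of genes, but the log2 TE difference of 0.74 (SE 0.71, 95% interval -0.88 to 2.35, limma adjusted p = 0.850) was close in size to its SE, and its interval included 0.

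Plk1 (ENSMUSG00000030867), at chr7:122159439-122169873 on the plus strand, is overlapped by Gm44985 on the other strand, which had no row in the tables. Its input level was 111 and 143 CPM in old and 156 and 79.3 CPM in young pools, and the ages overlapped. Its HA level was 197 and 104 CPM in old and 100 and 123 CPM in young libraries, also overlapping, with a log2 difference of 0.36 (SE 0.60, limma adjusted p = 0.884) that was -0.27 with libraries rescaled to the same sum. Plk1 TE was 1.77 and 0.725 in old and 0.643 and 1.55 in young pools. The order of the replicates was opposite in the 2 ages, and the log2 TE difference was 0.18 (SE 0.82, 95% interval -1.68 to 2.04, limma adjusted p = 0.972).

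**Figure D3:**
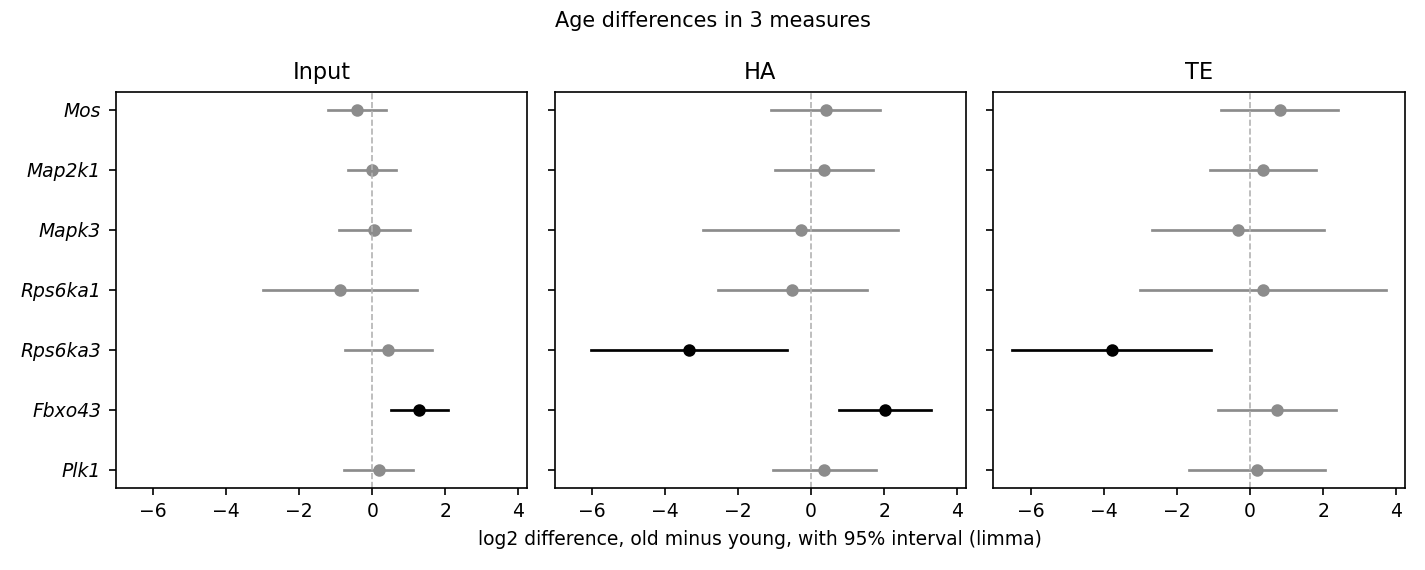
Log2 difference of old minus young with its 95% interval from limma for each measured member, in input, HA and TE (HA over input). Black marks an unadjusted p under 0.05 and grey the rest, the dashed line is 0, and no member passed the adjusted threshold. Fbxo43 is black at 1.29 in input and 2.03 in HA, and Rps6ka3 at -3.34 in HA and -3.79 in TE.

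The median log2 difference of the 7 members was 0.05 in input, 0.35 in HA and 0.36 in TE, beside -0.03, -0.14 and -0.10 over all genes tested. In input, 1 of 7 members had both old pools above the young pools (16.4% of all genes) and 2 had both below (18.9%). In HA it was 1 above (17.2%) and 1 below (24.7%), and in TE 1 above (17.2%) and 1 below (20.4%), namely Fbxo43 and Rps6ka3 in both. These counts were near the shares over all genes. The median TE of the members, averaged over the 2 pools of an age, was 1.03 in old and 1.06 in young oocytes, at median percentiles 61.9 and 67.5. By pool this median was 1.33 and 0.725 in old and 1.08 and 1.03 in young, so that the old pools were far apart. The median TE of all genes was 0.577 to 0.730 in the 4 pools.

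**Figure D4:**
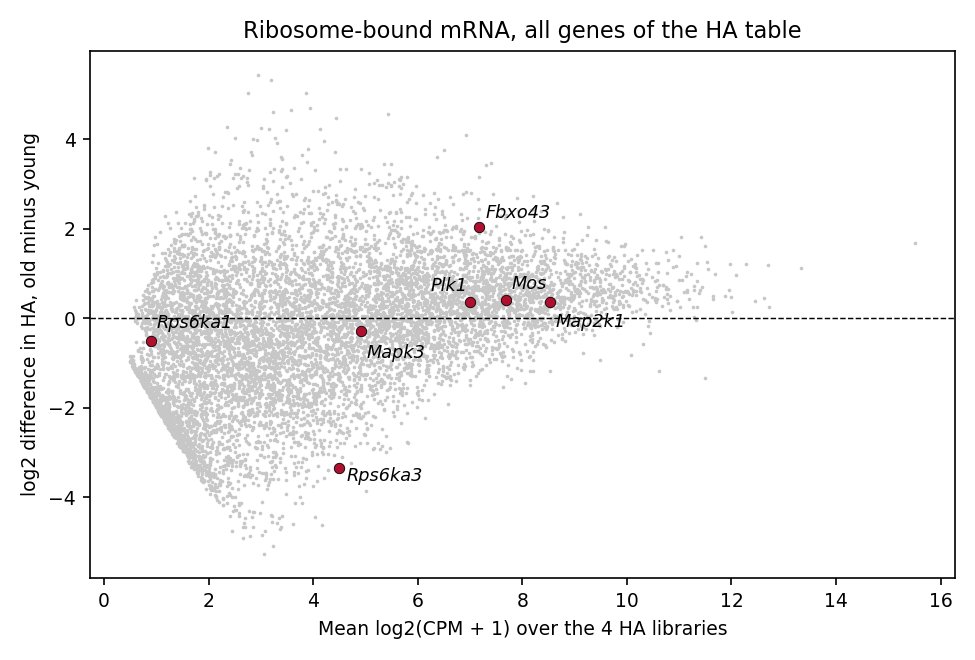
Log2 difference of old minus young in the HA libraries against the mean log2(CPM + 1) over the 4 HA libraries. Each grey point is a gene of the HA table (8898 genes) and red points are the 7 members. Fbxo43 at 2.03 and Rps6ka3 at -3.34 lie towards the edges of the cloud at their levels, and the other members lie within it.

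Levels of different genes were compared per kilobase of exon, in CPM per kb, although the counts also hold intronic reads. In total mRNA Mos was the most abundant member in each of the 4 pools, with 77.2 ± 6.88 CPM per kb in old and 105 ± 26.6 CPM per kb in young oocytes (SD, n = 2). Plk1, Map2k1 and Mapk3 followed with means between 50.7 and 57.8 CPM per kb in both ages. Neighbours among these 3 genes overlapped in their pools, and Plk1 and Map2k1 changed places between the ages. Fbxo43 came next in both ages with 39.4 ± 1.64 CPM per kb in old and 15.9 ± 0.517 CPM per kb in young oocytes, without overlap with its neighbours. Rps6ka3 (6.97 ± 1.88 and 5.21 ± 2.13 CPM per kb) and Rps6ka1 (1.62 ± 0.282 and 3.18 ± 0.397 CPM per kb) came last in old and young input.

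In ribosome-bound mRNA the first places belonged to Mos (169 ± 66.5 CPM per kb in old, 137 ± 84.0 in young) and Map2k1 (137 ± 87.6 CPM per kb in old, 96.0 ± 13.8 in young), whose pools overlapped with each other in both ages. Fbxo43 followed in old HA with 73.2 ± 15.4 CPM per kb, overlapping with Map2k1 and Plk1, and came after Plk1 in young HA with 17.5 ± 1.05 CPM per kb, overlapping with Mapk3 and not with Plk1. By its mean Rps6ka3 was last but one in both ages, with 0.741 ± 0.212 CPM per kb in old and 8.58 ± 1.84 CPM per kb in young HA. In young HA its pools overlapped with those of Mapk3, and in old HA they did not. The ratio of Fbxo43 to Mos per kb, computed within each library after the values were seen, was 0.560 and 0.465 in old input and 0.126 and 0.189 in young input. In input the ages had to separate in this ratio, since Fbxo43 was higher and Mos lower in both old pools. In HA the ratio was 0.289 and 0.691 for the old pools and 0.0933 and 0.218 for the young pools, which did not overlap. How often ratios of other gene pairs separate by age was not tested. A ratio within a library does not depend on how libraries were scaled.

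The remaining genes of the pathway were read from a list of 57 that leaves the members out, of which 43 were in the input and 41 in the HA table. None passed the adjusted threshold in limma. At an unadjusted p under 0.05, 1 was higher and 2 lower in old input (2.71% and 3.48% of all genes were), 4 were higher and 3 lower in old HA (4.28% and 10.5%), and 1 was lower in TE (3.51%). For all genes in HA this split depended on the scaling, with 381 higher and 930 lower as deposited, 112 and 1279 with all libraries set to 1 common sum, 253 and 230 after quantile and 286 and 140 after loess normalization. Their median log2 difference was 0.21 in input, 0.03 in HA and -0.04 in TE.

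Among genes close to the members, Map2k2 (MEK2) was in the input table alone, with 6.27 and 0.602 CPM in old and 8.78 and 0.788 CPM in young pools, in each age nearly all from replicate 1. Upstream of MEK, Braf, a RAF kinase, had 155 and 99.6 CPM in old and 56.4 and 61.7 CPM in young input (log2 difference 1.06, limma adjusted p = 0.778). The scaffold gene Ksr1 had 16.3 and 23.0 CPM in old and 51.1 and 48.9 CPM in young input (-1.32, adjusted p = 0.778 in limma). In HA both Braf and Ksr1 overlapped between the ages.

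Genes that act on the APC/C or on EMI2 gave further values. Fbxo5, which encodes the related inhibitor EMI1, had 45.0 and 47.2 CPM in old and 55.3 and 57.2 CPM in young input, and 77.6 and 42.5 CPM in old and 26.3 and 26.4 CPM in young HA. Old pools were the lower in input, as in 18.9% of genes, and the higher in HA, as in 17.2%. Its TE was 1.72 and 0.901 in old and 0.475 and 0.462 in young pools (log2 difference 1.38, SE 1.03, limma adjusted p = 0.795). Camk2g, the CaMKII gene that acts in EMI2 destruction at egg activation, had 304 and 384 CPM in old and 296 and 195 CPM in young input (0.51 on the log2 scale, limma adjusted p = 0.817), and overlapped in HA with 222 and 115 CPM in old and 137 and 108 CPM in young libraries. Ube2c, an APC/C ubiquitin-conjugating enzyme, had 65.8 and 67.0 CPM in old and 199 and 105 CPM in young input (-1.11 on the log2 scale, limma adjusted p = 0.778). In HA its ages overlapped, with 68.8 and 104 CPM in old and 115 and 59.5 CPM in young libraries (0.03 on the log2 scale). Its TE was higher in both old pools (1.04 and 1.55 against 0.577 and 0.566). Cul1, a cullin of the SCF ubiquitin ligase that takes EMI2 to degradation, had 3363 and 5789 CPM in old and 1942 and 2179 CPM in young HA (1.10, adjusted p = 0.297 in limma). Its input was also higher in both old pools (1454 and 1330 against 815 and 1119 CPM), and its TE overlapped between the ages (2.31 and 4.35 against 2.38 and 1.95). The PP2A scaffold subunit gene Ppp2r1b had 2.21 and 0.259 CPM in old and 42.4 and 41.5 CPM in young HA (-4.42, adjusted p = 0.297 in limma). This gap had the direction of that of Rps6ka3 in HA. Unlike Rps6ka3, Ppp2r1b was also lower in both old pools in input (7.33 and 11.2 against 14.3 and 23.1 CPM).

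Of the genes of M-phase promoting factor and its regulators, cyclin B1 (Ccnb1) had 912 and 1194 CPM in old and 470 and 545 CPM in young HA (1.04, adjusted p = 0.304 in limma). The CDK1 inhibitory kinase gene Wee2 had 1206 and 1543 CPM in old and 686 and 737 CPM in young HA (0.94, adjusted p = 0.313 in limma). Cdk1 itself had 0.855 and 0.444 CPM in old and 9.14 and 20.7 CPM in young HA (-3.18, adjusted p = 0.325 in limma), at input levels of 5.28 to 12.0 CPM. The polo-like kinase gene Plk3 had 3.22 and 1.82 CPM in young HA and 1 and 2 reads in the old HA libraries, which is under the floor. All of these were called at the unadjusted threshold and none at the adjusted one.

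The genes whose log2(CPM + 1) followed each member most closely over the 8 libraries, among 5305 genes with a mean of at least 10 CPM in both tables, are given as a description. The 8 points share their scaling and fall into input and HA libraries, so that a gene with a like difference between the fractions scores high. Fbxo43 was closest to Siah2 (Pearson's r = 0.965) and Cd6 (0.960), and Rps6ka3 to Adamts4 (0.979) and Cacul1 (0.977). Mos was closest to Dcaf7 (0.943) and Psap (0.940), Map2k1 to Astl (0.977) and Arhgap19 (0.975), and Mapk3 to Eef1a1 (0.978) and Ap1b1 (0.971). For Rps6ka1 they were Ptpn23 (0.983) and Tubb4b (0.972), and for Plk1 4921536K21Rik (0.957) and Litaf (0.915).

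**Figure D5:**
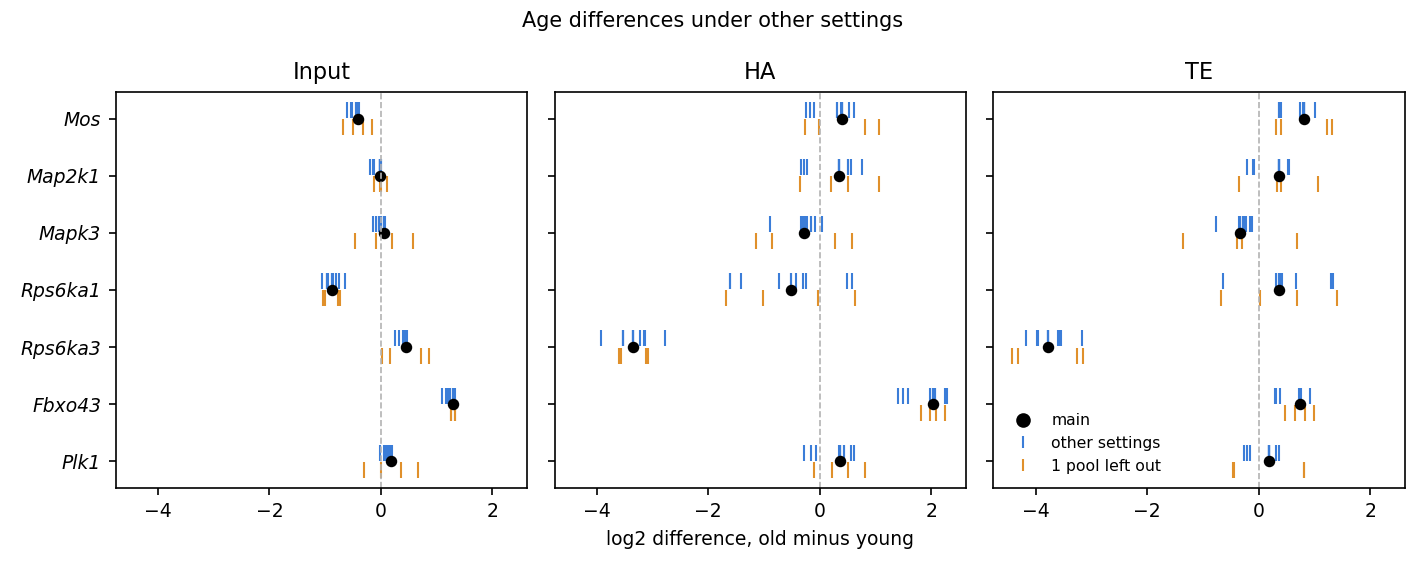
Log2 difference of old minus young for each measured member in input, HA and TE under every setting run. Black points are the values reported, blue ticks are other scalings, filters, pseudocounts and tests, orange ticks leave out 1 pool, and the dashed line is 0. Fbxo43 stays above 0 in all 3 panels and Rps6ka3 below 0 in HA and TE, whereas ticks of Mapk3, Plk1 and Map2k1 fall on both sides in each panel.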

How the data were processed

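RNA-Seq was analysed for 8 libraries, an HA and an input library from each of 4 pools of MII oocytes. The authors trimmed reads (Trimmomatic 0.36), aligned them to GRCm38 with HISAT2, counted them per gene with HTSeq without strand, and scaled input and HA separately by TMM in edgeR. The deposited values are a CPM signal (TMM-scaled, so that columns have different sums). A minimum of 10 CPM in 2 or more libraries is given in the Methods, which 5642 of 8898 HA genes and 6775 of 10530 input genes pass as deposited. Every value was a whole number of reads (within 0.01), so that reads were recovered. No column of values was left out (0).

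Old and young pools were compared with limma (eBayes with trend) on log2(CPM + 1), which understates differences of low genes, two-sided, and p was adjusted after Benjamini and Hochberg across each whole table (threshold 0.05). TE was HA over input of the same pool, which share a lysate, tested as the difference of their log2 values. Pools of different age with the same number were not paired. P-values measure the spread between 2 pools per age, and with a pool left out that between the pools of the other age alone. Alternatives were pseudocounts of 0.1 and 5 CPM, a 10 CPM filter, other scalings, eBayes without trend, a replicate block, edgeR and DESeq2 on the reads, and leaving out each pool. The tests were checked on simulated data.

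Named genes were the 8 members, pathway genes at an unadjusted p under 0.05, Map2k2, Camk2g and Fbxo5, and the 2 genes most like each member, and 1 gene that this rule names is not reported here. Members and lists were chosen with earlier results of these data known. Gene identifiers matched GENCODE M21, which is not the release the authors used, for 99.7% of HA and 99.8% of input genes. Tests ran in DESeq2 1.42.0, edgeR 4.0.16 and limma 3.58.1 under R 4.3.3, and tables and plots in pandas 2.3.3, numpy 2.4.6 and matplotlib 3.10.9 under Python 3.11.15. Gene ontology, reporter and protein measurements were not analysed here.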

Additional observations from a re-analysis of the deposited data

Results flagged for a closer look

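In Fbxo5, both old pools were below both young pools in input, as in 18.9% of genes, and above them in HA, as in 17.2%. The 2 log2 differences were 1.38 apart, a difference that as log2 TE did not pass the adjusted threshold in limma (adjusted p = 0.795). In Plk3, both old pools were above both young pools in input (2.35 and 17.6 against 1.83 and 1.60 CPM), as in 16.4% of genes. They were below them in HA, as in 24.7% of genes, where the old libraries had 1 and 2 reads. The log2 differences were -3.26 apart (limma unadjusted p = 0.0389, adjusted p = 0.739). The share of all genes with opposite directions in input and HA was not counted.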

How the results depend on the processing

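Of 327 alternative values for single members, 279 kept their direction and their side of the adjusted threshold. Another 45 changed sign, in members with no call, and 3 crossed the threshold. Of these 3, only Rps6ka3 in HA by DESeq2 came from a fit of all pools. The others (Rps6ka3 and Fbxo43 in HA) left out old replicate 1. With 1 old pool kept, their spread came from the young pools alone. The log2 differences that changed sign were, in input, Map2k1 0.010 (median scaling) and 0.0066 (DESeq2), Mapk3 -0.13 (same sum), -0.079 (quantile), -0.030 (loess), -0.030 (each edgeR test) and -0.0035 (DESeq2), and Plk1 -0.0093 (same sum). Under same-sum, quantile and loess scaling, HA gave -0.24, -0.17 and -0.10 for Mos, -0.29, -0.34 and -0.22 for Map2k1 and -0.27, -0.15 and -0.058 for Plk1, and TE gave -0.088, -0.20 and -0.10 for Map2k1 and -0.26, -0.21 and -0.15 for Plk1. Rps6ka1 in HA was 0.49 (quantile) and 0.58 (loess), its TE was -0.64 (edgeR interaction), and Mapk3 in HA was 0.045 (DESeq2). With each pool left out in turn, input ran from -0.13 to 0.10 (Map2k1), -0.46 to 0.57 (Mapk3) and -0.31 to 0.66 (Plk1), HA from -0.27 to 1.06 (Mos), 1.81 to 2.25 (Fbxo43), -0.35 to 1.05 (Map2k1), -1.15 to 0.59 (Mapk3), -1.68 to 0.64 (Rps6ka1), -3.60 to -3.09 (Rps6ka3) and -0.10 to 0.82 (Plk1), and TE from -0.35 to 1.07 (Map2k1), -1.35 to 0.68 (Mapk3), -0.68 to 1.40 (Rps6ka1) and -0.46 to 0.82 (Plk1). Genes past the adjusted threshold in input numbered 1, against 0 without trend and by edgeR's quasi-likelihood test, 50 by its likelihood ratio test, 114 by DESeq2 and 0 to 2 with a pool left out. In HA they numbered 0 (1311 at an unadjusted p under 0.05), against 295 by the likelihood ratio test, 508 by DESeq2 and 0 to 634 with a pool left out (393 without old replicate 1, 634 without young replicate 2), and members numbered 0, against 1 by DESeq2 and 0 to 2 with a pool left out. In TE they numbered 0 (554 unadjusted), with 0 to 13 when a pool was left out. With the replicate block they numbered 1 in input, 9 in HA and 5 in TE, with no member among them. Same-numbered pools deviated together by correlations over genes of 0.0269, 0.0786 and 0.0108. The labels do not say whether pools with the same number were handled together, and this was not tested. The median TE of the members in young oocytes was 1.21 with the 10 CPM filter, which leaves out Rps6ka1, and their median percentile was 71.6 after quantile normalization and 72.2 with the filter. At the unadjusted threshold, 285 genes were higher and 366 lower in old input (179 and 537 at the same sum, 305 and 257 after loess) and 254 higher and 300 lower in TE (108 and 469 at the same sum, 354 and 241 after median scaling). The cause of these changes was not tested. The floor of 3 reads bears on Rps6ka1 in HA, where 2 of 4 libraries were at or under it and the replicates of each age disagreed.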
